A study of Mus musculus with 6 samples.

Results

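The core circadian clock genes described here are 10 genes chosen by symbol: Per1, Per2, Per3, Cry1, Cry2, Arntl, Npas2, Dbp, Nr1d1 and Tef. Each had 1 row in the deposited table of 53715 genes, and all 10 were among the 16478 genes with enough counts to test. Their messenger RNA was measured in the hippocampus of adult male C57BL/6J mice, an inbred strain, aged 2 to 3 months. One group of 3 mice had eaten a ketogenic diet for 3 weeks and the other group of 3 a control diet. A ketogenic diet is high in fat and low in carbohydrate and raises circulating ketone bodies. No allele, transgene or other treatment is named in the labels, and no label gives the time of day at which tissue was taken. The libraries are called ketogenic 1, 2 and 3 and control 1, 2 and 3.

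The mammalian clock is a set of transcriptional feedback loops that run in nearly every cell. The partners BMAL1, encoded by Arntl, and CLOCK or NPAS2 bind E-box elements and switch on the Per and Cry genes, whose proteins return to the nucleus and repress BMAL1 and its partner. In a second loop the same activators switch on Nr1d1, which encodes REV-ERB alpha, a repressor that acts through ROR elements of Arntl and Npas2. Dbp and Tef encode related factors that bind D-box elements, as in Per genes. In rhythmic mouse tissues Arntl and Npas2 therefore peak in antiphase to Nr1d1 and Dbp, and tissue taken at different times of day differs in opposite directions in the 2 sets. Clock genes also cycle in the hippocampus, where time-of-day effects on memory have been studied.

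The elements of these loops can be read in the promoters of the members, of which 9 had a sequence in RefSeq on GRCm38.p6. Each window covers 250 bases before and 50 bases after an annotated start, and the 9 members have 12 windows. The search took the letters CACGTG for the E-box, CACGTT or AACGTG for its variant, TTATGTAA or TTATGCAA for the D-box and TAGGTCA for the ROR element, on both strands. None of these motifs overlapped another in the members. Of all 32851 windows in the table, 7.15% held the E-box, 4.68% its variant, 1.66% the D-box and 2.61% the ROR element. A motif was found in 7 of the 9 members. The 4 windows below show Npas2, the gene that rose, its partner Arntl, and Per1 and Per3. They are written on the strand of the gene with the matches in capitals, and none holds the E-box variant.
Npas2, chr1:39194022-39194321, plus strand: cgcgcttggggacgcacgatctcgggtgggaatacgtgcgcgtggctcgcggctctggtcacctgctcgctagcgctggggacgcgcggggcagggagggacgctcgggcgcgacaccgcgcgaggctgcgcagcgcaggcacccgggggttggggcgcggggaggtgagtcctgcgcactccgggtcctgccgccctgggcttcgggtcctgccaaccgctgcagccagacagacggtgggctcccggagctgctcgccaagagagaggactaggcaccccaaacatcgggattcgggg
Arntl, chr7:113207261-113207560, plus strand: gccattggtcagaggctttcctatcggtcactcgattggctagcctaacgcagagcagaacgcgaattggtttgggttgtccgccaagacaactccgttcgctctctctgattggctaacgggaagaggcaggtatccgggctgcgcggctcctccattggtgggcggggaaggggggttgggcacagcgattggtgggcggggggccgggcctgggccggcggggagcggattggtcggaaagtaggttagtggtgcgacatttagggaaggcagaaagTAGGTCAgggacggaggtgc
Per1, chr11:69098699-69098998, plus strand: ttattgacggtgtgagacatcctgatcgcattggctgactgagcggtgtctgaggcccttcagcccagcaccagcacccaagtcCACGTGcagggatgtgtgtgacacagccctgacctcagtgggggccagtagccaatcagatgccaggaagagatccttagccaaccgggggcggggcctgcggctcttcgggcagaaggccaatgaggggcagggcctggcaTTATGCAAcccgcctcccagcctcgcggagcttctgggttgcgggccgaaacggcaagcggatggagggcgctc
Per3, chr4:151044616-151044915, minus strand: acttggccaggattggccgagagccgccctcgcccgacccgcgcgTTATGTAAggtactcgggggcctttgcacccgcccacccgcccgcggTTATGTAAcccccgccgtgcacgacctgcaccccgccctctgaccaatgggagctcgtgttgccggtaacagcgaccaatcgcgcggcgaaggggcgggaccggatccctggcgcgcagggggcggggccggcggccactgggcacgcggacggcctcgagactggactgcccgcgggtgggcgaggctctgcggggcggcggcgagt
The Npas2 window held none of the motifs. The Arntl window held 1 match to the ROR letters searched, TAGGTCA, 30 bases after the start. Looser forms of that element were not searched. The Per1 window held an E-box 166 bases before the start and a D-box 24 bases before it, and the Per3 window held the D-box letters TTATGTAA at 205 and at 158 bases before the start. Among the windows not shown, those of Tef and Cry1 held an E-box and those of Cry1, Cry2 and Nr1d1 the E-box variant. No Dbp window held a motif, nor did the other annotated window of Arntl and that of Per1, which are not shown. These matches are descriptions of letters and were not measured as binding.

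The 6 libraries, 1 from each of 6 mice, held 16832240 to 18357792 gene counts. No 2 libraries of a diet agreed within sampling noise (chi-square over its degrees of freedom from 5.81 to 17.2). The labels do not say whether a replicate number marks a shared litter, cage or day. The extraction text names retina where the tissue label names hippocampus. All 8 listed markers of hippocampal neurons were tested, while 7 of 9 retina markers were not, Crx being at 0 counts. Of 6 markers of the suprachiasmatic nucleus, the master clock of the hypothalamus, 5 had too few counts to test, Nms and Six6 were at 0 counts, and the tested one was Rorb. Marker RNA of several cell types and neighbouring areas also differed by diet, which is given beside Npas2 below. Levels are CPM, in which counts are scaled to library size by TMM, or the authors' deposited FPKM, which also scale by gene length. A change is a log2 fold change of ketogenic over control, with its standard error after ±. Its adjusted p-value comes from the quasi-likelihood test of edgeR, corrected by Benjamini and Hochberg's method across all 16478 genes, and a gene passed the test at an adjusted p under 0.05.

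The diets differed little in the core clock. Npas2 rose with the ketogenic diet and none of the other 9 members passed the test, with log2 fold changes between -0.32 for Arntl and 0.15 for Per1. That is 1 member called of 10, where 9.67% of all tested genes were called, a share near the background. By direction, 1 member rose and 0 fell, where 5.05% of all tested genes rose and 4.62% fell. At an unadjusted p under 0.05 edgeR counted 1 of the other 9, Arntl, and DESeq2 and limma-voom also called no member but Npas2. The CPM ranges of the diets did not overlap for 3 members, Npas2 above the control range and Arntl and Cry2 below it. Among all tested genes 27.6% did not overlap, 14.0% with the ketogenic libraries higher and 13.6% with them lower. The median log2 fold change of the members was -0.06, against -0.01 for all tested genes. For all 9 members other than Npas2 the whole 95% interval lay within a 1.5-fold change in either direction.

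**Figure D1:**
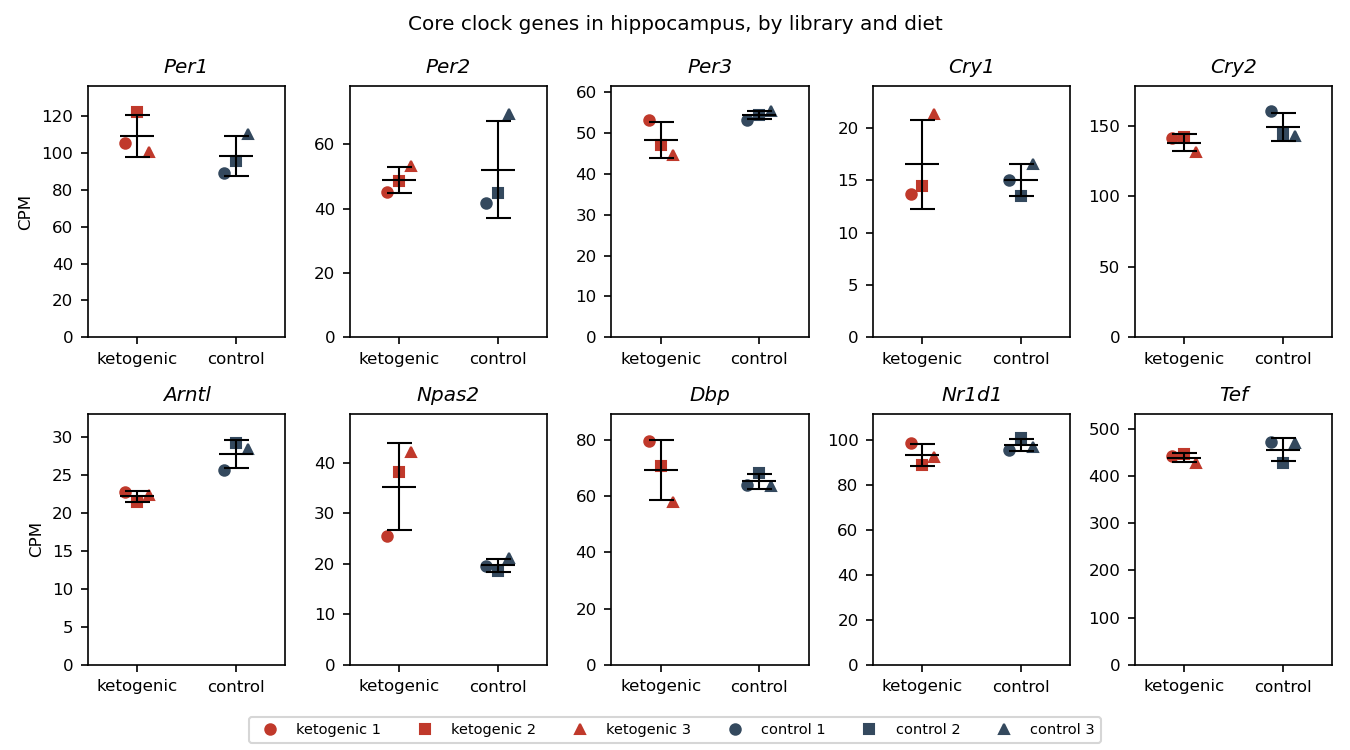
CPM of each of the 10 members (vertical axis, from 0) in the 3 ketogenic and 3 control libraries; points are libraries and bars the mean and SD. The ketogenic libraries of Npas2 sit between 25.6 and 42.0 CPM, above the control libraries, those of Arntl lie below the control libraries, and most other members overlap.

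Npas2 encodes a bHLH-PAS protein of the forebrain that can stand in for CLOCK as the partner of BMAL1 (ENSMUSG00000026077, chromosome 1, 39193731 to 39363236, plus strand, GRCm38). It had 25.6, 38.3 and 42.0 CPM in the ketogenic libraries, against 19.6, 18.6 and 21.1 CPM in the control libraries. All 3 ketogenic libraries were above all 3 control libraries, with ketogenic 1 nearest to them. The means were 35.3 ± 8.61 CPM with the ketogenic diet and 19.7 ± 1.26 CPM with the control diet (SD, n = 3 each), so the spread within the ketogenic group was the larger. Its log2 fold change was 0.84 ± 0.16 (95% interval 0.47 to 1.20, adjusted p = 0.0113), a 1.79-fold rise. The call was lost without ketogenic 2 (adjusted p = 0.0660) and without control 2 (adjusted p = 0.0616), and the log2 fold change stayed at 0.77 and 0.79. Without ketogenic 1 it was 1.02 (adjusted p = 0.000654).

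Markers of several cell types and neighbouring areas moved with diet in the same libraries, where 5.05% of all tested genes rose and 4.62% fell. The summed level of 12 interneuron markers was 1041, 1187 and 1387 CPM in the ketogenic libraries, against 754.2, 766.1 and 769.6 CPM in the control libraries, with 10 of the 12 higher and none lower. The summed level of 6 fibroblast markers was 138.2 to 210.9 CPM in the ketogenic libraries and 43.1 to 62.4 CPM in the control libraries, with 5 higher. Of 8 subicular and cortical markers 4 were higher and none lower, at 389.1 to 419.4 CPM in the ketogenic libraries and 255.2 to 302.6 CPM in the control libraries. Of 9 thalamus markers 4 were higher and 2 lower, at 261.1 to 284.1 and 176.6 to 211.4 CPM in ketogenic and control libraries. These genes did not move as one. Calb2, which is also a marker of hilar mossy cells in the hippocampus, rose most, with means of 53.4 CPM in ketogenic and 7.46 CPM in control libraries. Prkcd was lower, at 12.4 and 34.6 CPM, and Tcf7l2 was level at 0.02 (adjusted p = 0.975). Within the ketogenic group ketogenic 1 was lowest and ketogenic 3 highest in Npas2 and in the sums of all 4 of these lists. Single markers did not all follow the order of the sums. Of the subicular and cortical list, Etv1, its most abundant gene, was highest in ketogenic 2 and Fezf2 in ketogenic 1. Fn1 of that list was highest in ketogenic 3, at 116.8, 98.4 and 142.9 CPM in ketogenic 1, 2 and 3. Cacna1g, the most abundant thalamus marker, ran against the sum of its list, at 92.0, 89.3 and 86.6 CPM. In the other direction, 6 of the 8 hippocampal neuron markers were lower and none higher (4149 to 5099.6 CPM in ketogenic and 6281 to 6371 CPM in control libraries). Likewise 7 of 12 dentate granule cell markers were lower (735.9 to 996.1 CPM in ketogenic and 1356 to 1544 CPM in control libraries), as were 10 of 12 myelin markers (2952 to 4027 and 5539 to 7002 CPM). All 15 choroid plexus markers were lower, at 62.1 to 113.5 CPM in ketogenic libraries and 826.9 to 7486 CPM in control libraries, with control 1 and 2 the highest. DESeq2 also called all 15, while limma-voom called 3 of them. Within the ketogenic group the sums of the hippocampal neuron and dentate lists, which share Prox1, ran the other way, highest in ketogenic 1 and lowest in ketogenic 3. No tested marker of these lists was at 0 in all libraries. None of 5 astrocyte, 5 microglia and 5 endothelial markers passed the edgeR test. At an unadjusted p under 0.05 it counted 1 of these, the astrocyte gene Aqp4, which DESeq2 called and limma-voom did not, and both tools called none of the others. The part of these marker differences in the Npas2 result was not tested, and in whole tissue a different number of cells and a different amount of RNA per cell cannot be told apart. Without control 1 and 2, which leaves 1 control library assumed to vary like the others, Npas2 stood at 0.74 (adjusted p = 0.194).

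Arntl and Clock did not rise with Npas2. Arntl (ENSMUSG00000055116, chromosome 7, 113207465 to 113314126, plus strand), the gene of BMAL1, had 22.9, 21.5 and 22.4 CPM in the ketogenic libraries and 25.7, 29.3 and 28.4 CPM in the control libraries. Every ketogenic library was below every control library. Its log2 fold change was -0.32 ± 0.095 with a 95% interval of -0.53 to -0.11, and it missed the threshold (adjusted p = 0.0615). Over the 15 alternative fits it stayed between -0.38 and -0.25 (adjusted p between 0.0586 and 0.264). Clock, the paralogue of Npas2, had 95.6, 98.0 and 103.2 CPM in the ketogenic libraries and 101.1, 99.0 and 108.1 CPM in the control libraries, which overlap. It stood at -0.05 ± 0.07 (95% interval -0.20 to 0.09, adjusted p = 0.694). The 2 genes can also be set against each other within a library, which removes any scaling. The log2 ratio of Npas2 to Clock was -1.90, -1.36 and -1.30 in the ketogenic libraries, against -2.37, -2.42 and -2.36 in the control libraries. Its mean was 0.86 higher with the ketogenic diet, and the diets did not overlap. The log2 ratio of Npas2 to Arntl was 0.16, 0.83 and 0.91 in the ketogenic libraries and -0.39, -0.66 and -0.43 in the control libraries. The mean was 1.13 higher with the ketogenic diet, and the diets did not overlap. These ratios of counts are given without a test. Npas2 was higher and Arntl lower in every ketogenic library, so their ratio could not overlap and adds no further support. With Clock nearly level, the ratio of Npas2 to Clock mostly repeats the Npas2 difference. Arntl2, a second BMAL gene, stood at -0.13 ± 0.18 (adjusted p = 0.744).

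The repressors of the first loop did not pass the test. Per1 (ENSMUSG00000020893, chromosome 11, 69095217 to 69109960, plus strand), whose promoter also answers to CREB and to glucocorticoids, had 105.7, 122.4 and 100.5 CPM in the ketogenic libraries and 89.2, 95.6 and 110.4 CPM in the control libraries. Its log2 fold change was 0.15 ± 0.10 (95% interval -0.06 to 0.37, adjusted p = 0.399). Per3 had 53.3, 47.0 and 44.6 CPM in the ketogenic libraries and 53.3, 54.5 and 55.3 CPM in the control libraries. It stood at -0.17 ± 0.08 (95% interval -0.35 to 0.01, adjusted p = 0.253), with ketogenic 1 level with control 1 and the others lower.

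Per2 (ENSMUSG00000055866, chromosome 1, 91415982 to 91459324, minus strand) varied more within the control diet than between the diets. It had 45.1, 48.5 and 53.3 CPM in the ketogenic libraries and 41.8, 44.9 and 69.4 CPM in the control libraries. Control 3 stood above all other libraries, and the coefficient of variation was 8.45% in the ketogenic and 29.0% in the control group. The log2 fold change was -0.09 ± 0.17 (95% interval -0.46 to 0.28, adjusted p = 0.813), and without control 3 it was 0.17 (adjusted p = 0.319). Its direction therefore rested on that library. Known targets of the glucocorticoid receptor, of which the Per genes are also examples, were high in the same library. Tsc22d3, the gene of GILZ, had 79.6, 74.0 and 121.7 CPM in the ketogenic libraries and 40.0, 61.8 and 122.9 CPM in the control libraries. Fkbp5, a chaperone of that receptor, had 76.3, 68.8 and 93.0 CPM in the ketogenic libraries and 68.2, 80.5 and 117.4 CPM in the control libraries. Of the 9 listed glucocorticoid-responsive genes, 8 had their highest ketogenic value in ketogenic 3 and their highest control value in control 3, as did Per2, Cry1 and Npas2 among the 10 members. The same held for 15.2% of all tested genes. Per1 and Per3 did not share this pattern. Both were highest in control 3 among the control libraries, at 110.4 and 55.3 CPM. Within the ketogenic group both were lowest in ketogenic 3, at 100.5 and 44.6 CPM. The part of the library 3 pattern in the Per2 values was not tested.

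Cry1 and Cry2 encode the cryptochromes, which repress BMAL1 and its partner together with the PER proteins. Cry1 had 13.7, 14.5 and 21.4 CPM in the ketogenic libraries and 15.0, 13.5 and 16.6 CPM in the control libraries. Ketogenic 3 was the highest of the 6, the diets overlapped, and the log2 fold change of 0.14 ± 0.17 (95% interval -0.25 to 0.52, adjusted p = 0.707) turned to -0.09 without that library (adjusted p = 0.775). Cry2 had 141.1, 141.6 and 131.2 CPM in the ketogenic libraries and 160.4, 143.7 and 142.6 CPM in the control libraries. Its ranges did not overlap, with ketogenic 2 close to control 3, and the log2 fold change of -0.11 ± 0.07 (95% interval -0.26 to 0.04) did not pass the test (adjusted p = 0.396).

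In the second loop Nr1d1 (ENSMUSG00000020889, chromosome 11, 98767932 to 98775333, minus strand) was nearly level. It had 98.8, 89.0 and 92.6 CPM in the ketogenic libraries and 95.6, 101.1 and 97.2 CPM in the control libraries, a log2 fold change of -0.07 ± 0.07 (95% interval -0.21 to 0.08, adjusted p = 0.610). Its paralogue Nr1d2, the gene of REV-ERB beta, stood at -0.06 ± 0.07 (adjusted p = 0.638). Rora and Rorb, which encode ROR factors that activate through the elements that REV-ERB represses, were higher in every ketogenic library than in any control library. The same held for 14.0% of all tested genes. Of the 11 other loop factors 4 did not overlap, Bhlhe41 among them with the ketogenic libraries lower. Rora had 46.3, 45.6 and 50.7 CPM in the ketogenic libraries and 40.3, 35.7 and 39.7 CPM in the control libraries and rose by 0.30 ± 0.08 (adjusted p = 0.0489). Rorb had 20.4, 19.1 and 18.5 CPM in the ketogenic libraries and 13.4, 15.8 and 16.6 CPM in the control libraries, at 0.34 ± 0.12 (adjusted p = 0.108). The call of Rora was lost without any single library (adjusted p between 0.0632 and 0.200), and also with limma-voom. The part of the marker differences given beside Npas2 in the Rora and Rorb values was not tested.

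Dbp and Tef, with their relative Hlf, encode the PAR bZIP factors that carry the clock to D-box genes. Dbp (ENSMUSG00000059824, chromosome 7, 45705088 to 45710203, plus strand), among the most strongly cycling transcripts of mouse tissues, had 79.4, 70.5 and 58.1 CPM in the ketogenic libraries and 63.8, 68.1 and 63.7 CPM in the control libraries. The ketogenic libraries lay on either side of the control range, and the log2 fold change was 0.09 ± 0.10 (95% interval -0.14 to 0.32, adjusted p = 0.680). Tef had 441.5, 446.5 and 427.8 CPM in the ketogenic libraries and 471.1, 426.8 and 468.4 CPM in the control libraries, at -0.05 ± 0.06 (95% interval -0.19 to 0.08, adjusted p = 0.663). Hlf had 193.5, 210.8 and 204.3 CPM in the ketogenic libraries and 165.8, 169.0 and 182.1 CPM in the control libraries. It rose by 0.24 ± 0.06 (adjusted p = 0.0434), a call lost without any library but ketogenic 1 or control 3 (adjusted p up to 0.202). Nfil3, the gene of E4BP4, which competes for D-boxes, stood at 0.16 ± 0.21 (adjusted p = 0.726).

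Exons of 5 members share bases with a gene on the other strand in the annotation, and the strand setting of the counting is not given. Dbp shares 539 exonic bases, 18.0% of its own, with Sphk2, and Nr1d1 shares 263 bases, 8.55%, with the abundant Thra. Neither partner differed past the threshold, at 0.03 for Sphk2 (adjusted p = 0.899) and 0.02 for Thra (adjusted p = 0.907). Cry2, Arntl and Tef share 4.67%, 0.439% and 2.45% of their exonic bases with noncoding genes that had at most 121 counts over the 6 libraries.

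Whether genes of opposite phase differed in opposite directions was asked of 11 genes that peak from day to evening in mouse tissues and of 4 that peak in antiphase to Nr1d1. Neither set moved as one. Of the 11 day-phase genes 4 had a positive and 7 a negative log2 fold change, between -0.39 and 0.24 with a median of -0.06, and Hlf was the gene past the threshold. Of the 4 antiphase genes 2 were positive and 2 negative, between -0.32 and 0.84 with a median of 0.05, and Npas2 was the one past the threshold. Usp2, a deubiquitinase gene that cycles in many tissues, was the lowest of the day set, at -0.39 ± 0.12 (adjusted p = 0.0725), and DESeq2 called it. Ciart, the gene of the repressor CHRONO, stood at 0.10 ± 0.16 (adjusted p = 0.776). Bhlhe40 and Bhlhe41, the genes of the repressors DEC1 and DEC2, stood at -0.09 ± 0.09 and -0.24 ± 0.11 (adjusted p = 0.640 and 0.227). Within the antiphase set Npas2 and Arntl lay on opposite sides of 0, with 95% intervals of 0.47 to 1.20 and -0.53 to -0.11.

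**Figure D2:**
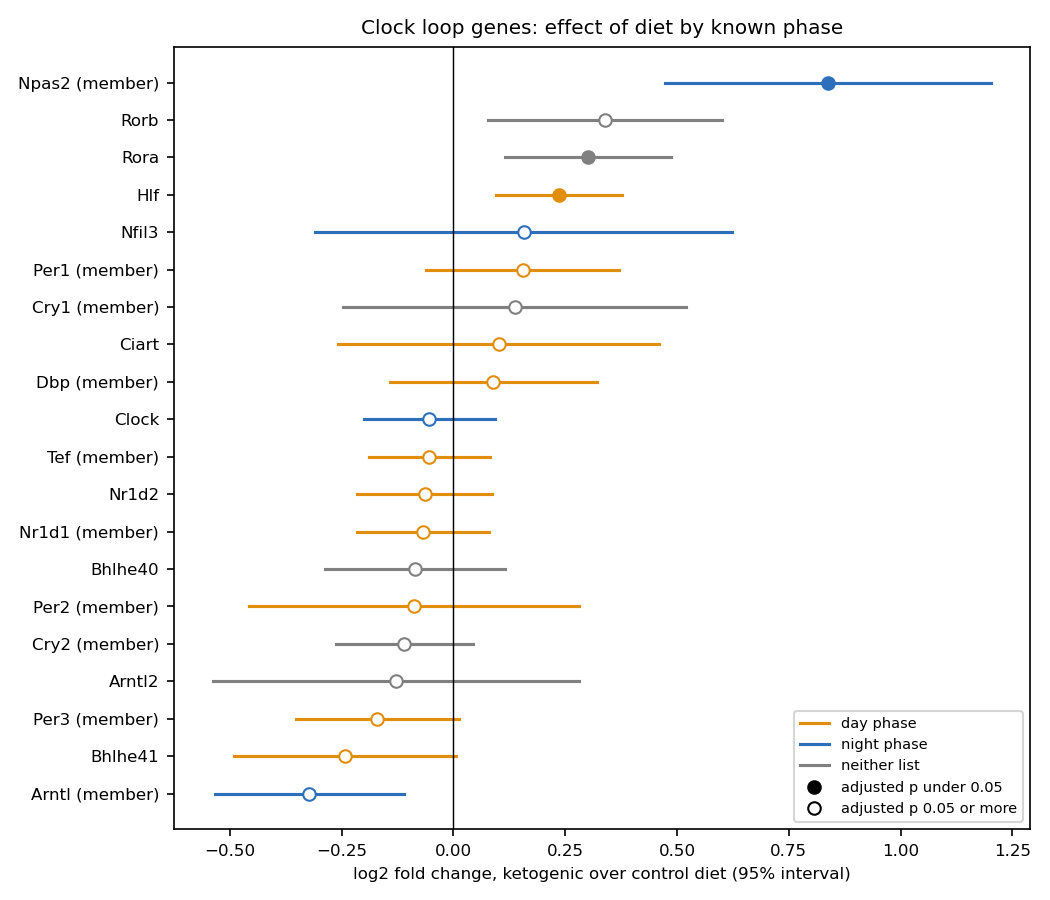
Log2 fold change of ketogenic over control diet (horizontal axis) with its 95% interval for the 10 members and 10 other clock loop factors, coloured by known phase; filled points passed the test. Npas2 at 0.84 stands apart at the top and Arntl at -0.32 at the bottom, both from the night phase list, with day phase genes on either side of 0.

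A pair of opposite phase, Dbp and Arntl, was set against each other within each library. The log2 ratio of Dbp to Arntl was 1.80, 1.72 and 1.37 in the ketogenic libraries, against 1.31, 1.22 and 1.16 in the control libraries. The ratio was higher in each ketogenic library than in any control library, by 0.40 in the mean, with ketogenic 3 close to control 1. Most of that difference came from Arntl, with a log2 fold change of -0.32 against 0.09 for Dbp. No test is given for a ratio chosen from the members. The log2 ratio of Per2 to Per1 overlapped, at -1.23, -1.34 and -0.92 in the ketogenic libraries and -1.09, -1.09 and -0.67 in the control libraries, highest in library 3 of each diet.

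**Figure D3:**
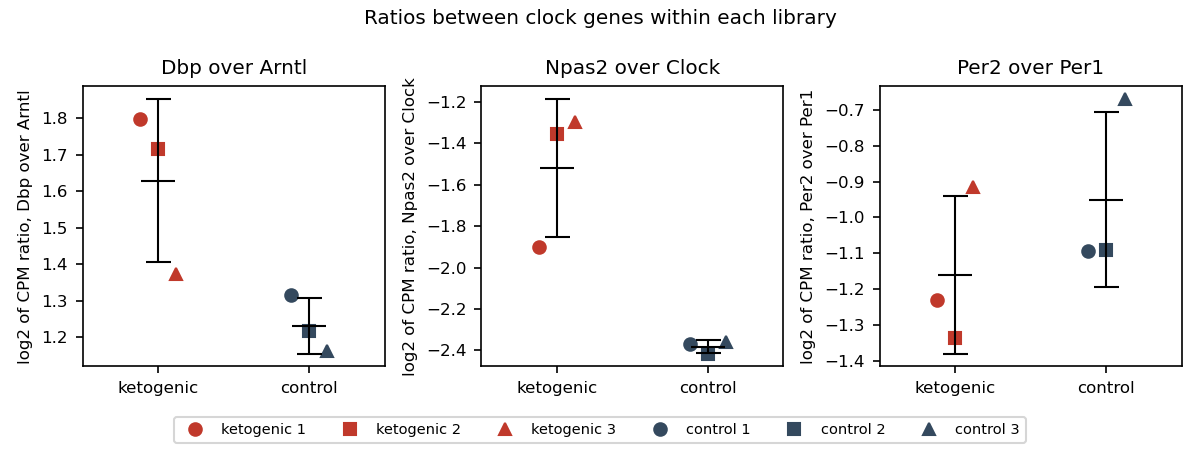
Log2 ratio of the CPM of 2 genes within each library (vertical axes, which do not start at 0) for the ketogenic and control diets, with mean and SD. Dbp over Arntl and Npas2 over Clock were higher in all 3 ketogenic libraries than in the control libraries, while Per2 over Per1 overlapped.

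Per length, the order of the members was much the same with either diet. Tef was the most abundant, at 55.4 ± 1.11 FPKM with the ketogenic and 57.5 ± 3.21 FPKM with the control diet (SD, n = 3 each), followed by Nr1d1 at 30.2 ± 1.59 and 31.6 ± 0.869 FPKM. Dbp and Cry2 came next and overlapped with either diet, at 23.0 ± 3.52 and 21.7 ± 0.876 FPKM with the ketogenic diet and 21.6 ± 0.808 and 23.4 ± 1.58 FPKM with the control diet. Per1 stood at 19.3 ± 1.99 and 17.4 ± 1.94 FPKM, and overlapped Cry2 with the ketogenic diet. Per2 followed at 8.301 ± 0.717 and 8.83 ± 2.57 FPKM. Among the lower members Npas2 changed its place. With the ketogenic diet it was seventh at 7.32 ± 1.79 FPKM, overlapping Per2 above it and Per3 below it, and with the control diet ninth at 4.09 ± 0.266 FPKM, overlapping Cry1 above it and Arntl below it. Per3 was at 4.99 ± 0.459 and 5.62 ± 0.105 FPKM and Cry1 at 4.92 ± 1.27 and 4.47 ± 0.468 FPKM in ketogenic and control libraries. Arntl was the lowest with either diet, at 2.94 ± 0.0954 FPKM with the ketogenic and 3.67 ± 0.248 FPKM with the control diet.

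The other genes around the clock were read from lists of loop factors, modifiers, outputs and inputs. Of 51 distinct genes, all tested, 3 rose and 3 fell, with a median of -0.05. That is 6 called of 51, where 9.67% of all tested genes were called, 5.05% higher and 4.62% lower. The median of all tested genes was -0.01. Among 11 other loop factors Rora and Hlf rose and none fell. None of 14 genes of kinases, ubiquitin ligases and partners that act on clock proteins passed the test, with log2 fold changes between -0.20 and 0.53. At an unadjusted p under 0.05 edgeR counted 3 of the 14, and DESeq2 and limma-voom called none. The most abundant of them, Csnk1a1, the gene of a casein kinase, stood at -0.09 ± 0.06 (adjusted p = 0.391). None of 8 rhythmic output genes passed in edgeR. Usp2 was below an unadjusted p of 0.05 and was called by DESeq2 but not by limma-voom. The most abundant output gene, Por, which encodes a cytochrome P450 reductase, stood at -0.05 ± 0.09 (adjusted p = 0.787).

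Genes that share inputs with Per1 moved unevenly, in short lists to be read beside the 5.05% of all tested genes that rose and 4.62% that fell. Of 9 glucocorticoid-responsive genes 1 fell. Klf9, a Kruppel-like factor gene that also cycles, had a log2 fold change of -0.35 and an adjusted p of 0.0384, at 169.1, 170.8 and 183.1 CPM in the ketogenic libraries and 189.7, 229.9 and 246.5 CPM in the control libraries. Of 10 activity-induced genes 1 rose and 2 fell. Sik1, a kinase gene induced by CREB that dampens clock resetting, had 19.6, 23.6 and 22.3 CPM in the ketogenic libraries and 15.0, 12.7 and 13.9 CPM in the control libraries, a log2 fold change of 0.66 ± 0.12 (adjusted p = 0.00746). Npas4, a neuronal activity factor of the same protein family as NPAS2, had 9.76, 8.595 and 8.14 CPM in the ketogenic libraries and 17.6, 15.8 and 13.9 CPM in the control libraries, at -0.84 ± 0.14 (adjusted p = 0.00492). Arc, a synaptic plasticity gene, fell by 0.48 (adjusted p = 0.0206), and Fos stood at 0.27 ± 0.13 (adjusted p = 0.260). Markers of hippocampal neurons and dentate granule cells also moved with diet, as given beside Npas2. Their part in the values of these input genes was not tested. The call of Klf9 was lost without ketogenic 1, 2 or 3 or control 2 or 3 (adjusted p up to 0.155), that of Arc without ketogenic 2, ketogenic 3 or control 2 (up to 0.0800) and that of Sik1 without ketogenic 2 (0.0537).

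**Figure D4:**
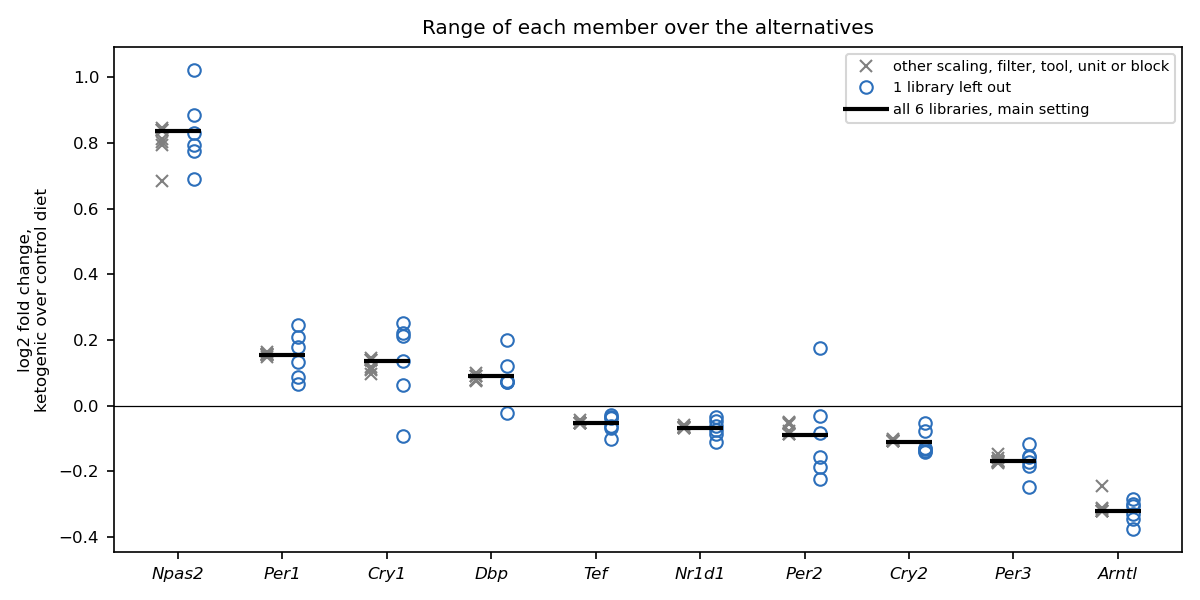
Log2 fold change of ketogenic over control diet (vertical axis) of each member with all 6 libraries (bar), with 1 library left out (circles) and under other scaling, filter, tool, unit or block (crosses). Npas2 stays above 0 and Arntl below 0 throughout, while Per2, Cry1 and Dbp cross 0 without 1 library.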

How the data were processed

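Hippocampal RNA of 6 mice, 3 per diet, was sequenced from Illumina TruSeq libraries, per the labels' protocols. The deposited tables give whole read counts and FPKM for each Ensembl gene and library. The submitters' processing notes list CASAVA, featureCounts (1.5.0-p3), DESeq2 (1.10.1) and mm9; neither an aligner nor a strand setting is given. Of 53620 identifiers shared with GENCODE M21 (GRCm38), 97.1% have the same start and end, as do all 10 members, so coordinates are on GRCm38. The deposited FPKM equal the count over gene length over a library size of 0.987 to 1.02 times the total count.

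The counts went into edgeR 4.0.16 (R 4.3.3; filterByExpr, which left 16478 of 53715 genes, TMM scaling, quasi-likelihood F-test, no covariate), and an adjusted p under 0.05 was a call. Standard errors are the absolute log2 fold change over the square root of F, and 95% intervals use its t quantile. Totals of 16832240 to 18357792 counts gave a median standard error of 0.13. On counts simulated from the means and gene-wise dispersions of these 16478 genes, 35 of 100 genes were recovered at a 1.5-fold change and 69 of 100 at 2-fold, with 7 false calls, so a 1.5-fold change could often be missed.

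Named are all members, the other loop factors (1 is not reported here), the other genes of the phase lists, and of each modifier, output and input list those past the threshold and the most abundant one. Fkbp5, Tsc22d3, Fos, Sphk2, Thra and Aqp4 were named after their values were seen. The members and lists were chosen with earlier results of these data known. Alternatives were upper-quartile or RLE scaling, testing without a filter, a replicate block, DESeq2 1.42.0, limma-voom (limma 3.58.1), limma on log2(FPKM + 1) and log2(FPKM + 0.1), each library left out, control 1 and 2 left out, and thresholds of 0.01 and 0.10.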

Additional observations from a re-analysis of the deposited data

How the results depend on the processing

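Over 15 alternative fits Npas2 stayed between 0.69 and 1.02 on the log2 scale and Arntl between -0.38 and -0.25, and Per3, Cry2, Nr1d1 and Tef stayed negative. The count of members past the threshold was 1 in all fits except without ketogenic 2, without control 2 and without control 1 and 2, where it was 0; leaving out 1 library gave 0 to 1. At an adjusted p under 0.01 it was 0 and under 0.10 it was 2 (Npas2 and Arntl). For the 51 other clock genes and inputs the count of 6 was 2 on log2(FPKM + 1), 3 on log2(FPKM + 0.1), 2 without control 1 and 2, 2 at 0.01, and 2 to 7 with 1 library left out. Over all genes 1593 became 2462 without a filter, 1060 on log2(FPKM + 1), 289 without control 1 and 2, 587 at 0.01, and 538 to 1877 with 1 library left out. The causes of these changes in count were not tested.

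The difference in log2 ratio of Dbp to Arntl moved by less than the spread between replicates in every fit. Signs turned for genes near 0. Without control 1 and 2, Per1 stood at -0.012, Cry1 at -0.0059, Nfil3 at -0.23 and Ciart at -0.069. With 1 library left out, Per2 ranged from -0.22 to 0.17 (positive without control 3), Cry1 from -0.094 (without ketogenic 3) to 0.25, Dbp from -0.022 (without ketogenic 1) to 0.20, Arntl2 from -0.23 to 0.027 (without ketogenic 3), Bhlhe40 from -0.18 to 0.016 (without control 3), Nfil3 from -0.011 (without control 1) to 0.395 and Ciart from -0.024 (without ketogenic 1) to 0.25. The cause was not tested.

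Across genes the deviations of same-numbered libraries correlated at r of -0.024, 0.061 and 0.029, none over 0.1, so the libraries were not treated as paired. The glucocorticoid-responsive genes that were highest in library 3 of each diet are a subset that this value over all genes does not describe. With a replicate block 1504 genes, 1 member (Npas2, adjusted p = 0.0107) and 5 of the 51 other genes passed, Usp2 being called and Hlf and Rora not.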
